A study of Caenorhabditis elegans with 28 samples.

Results

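let-7 is a microRNA (miRNA) of C. elegans, and its hairpin gives 2 mature arms, the guide let-7-5p and the passenger let-7-3p. Both arms, chosen by name out of 437 arms counted, were followed in 28 small RNA libraries of whole larvae. The wild-type strain N2 was compared with HW3527, a strain that carries the tm2321 allele of ebax-1 IV, a gene for the substrate-binding subunit of a Cullin-RING ubiquitin ligase linked to miRNA turnover. Synchronised larvae of both strains grew untreated on plates at 25 °C and were harvested hourly, with a single library for each of the 14 hours (18 to 31 h) of either strain. No replicate cultures are named, so a strain cannot be told apart from its culture, and ebax-1 mRNA was not analysed here.

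A miRNA gene is transcribed into a long primary transcript, which is cut first to a hairpin and then to a duplex of both arms. One arm, the guide, is kept by an Argonaute protein, and the other, the passenger, is usually degraded soon afterwards, so that passenger levels are often read as a sign of recent production. let-7 is a heterochronic miRNA, known for driving the change from larval to adult cell fates, among others in the epidermal seam cells, through targets such as lin-41. The RNA-binding protein LIN-28 holds back its processing in young larvae. In whole larvae, fewer cells that make let-7 and less let-7 per cell cannot be told apart.

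In the WBcel235 annotation, the let-7 gene (C05G5.6) is on the minus strand of chromosome X, from 14743590 to 14745321. The hairpin precursor of 99 bases covers 14744173 to 14744271. The guide is annotated at 14744234 to 14744255 and the passenger at 14744191 to 14744212, each 22 bases long. Transcription is annotated with 3 primary transcripts of 1732, 891 and 707 bases, all ending at 14743590. All 3 span the small protein-coding gene C05G5.7 on the same strand, and the longest also spans the non-coding RNA gene C05G5.8 on the opposite strand. The counts themselves were made on the ce10 build, and these positions were used for no count.

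Library totals ran from 4938126 to 13223782 counts. Values below are normalised counts, which are counts scaled to the mean library total of 8357083. Intervals cover counting error alone, at a confidence of 95%. The smallest total, 4938126, was that of wild type at 29 h. The mutant libraries of 28, 29 and 31 h had the smallest totals of the mutant, at 5055100, 4970366 and 6125674. They stood apart by low miR-62, which in the mutant fell together with low depth. Their miR-62, a miRNA cut from an intron by splicing, was at 301, 647 and 754 normalised counts, against at least 1235 in the other mutant libraries. The let-7 fits that use these libraries are also given without them, and single values from them are named as such.

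The passenger let-7-3p came in pulses in wild type. It was almost unmeasured at 18 h, with 8 reads or 5.84 normalised counts (exact Poisson interval 2.52 to 11.5), and at 17.7 at 19 h. The count was then 414 at 20 h, 2246 at 21 h and 2987 at 22 h, which is 511 times that of 18 h, although the starting value rests on few reads.

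From this peak, let-7-3p in wild type was at 1541 at 23 h, 444 at 24 h, 149 at 25 h and 123 at 26 h, a fall of 24.4-fold from 22 h. A second pulse followed, with 207 at 27 h, 752 at 28 h, 2187 at 29 h, 2331 at 30 h and 1333 at 31 h. The count of 30 h was 19.0 times that of 26 h (counting interval 15.7 to 23.2) and 0.781 times that of the first peak (0.739 to 0.824). The highest library of the second pulse was thus below that of the first, and 8 h lay between them, at 22 and 30 h. With hourly sampling, the top of either pulse may lie between libraries.

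The guide let-7-5p accumulated in steps over the same hours. It stood at 5280 normalised counts at 18 h and 4607 at 19 h, then at 14433, 64543, 105359 and 169637 at 20, 21, 22 and 23 h, or 36.8 times the 19 h value at the end of this climb. From 24 to 29 h the guide climbed no further, with values of 163177, 125480, 124068, 119649, 133480 and 128927. It was thus lower from 25 h on and then nearly level. The 29 h value was 0.760 times that of 23 h (counting interval 0.754 to 0.766). The last 2 hours brought a further step to 179186 and 247287, the highest guide value of wild type and 1.92 times that of 29 h. The guide made up 2.96% of the counted reads of the 31 h library. The climbs of the guide lay in the hours when the passenger was high. Most hours without a climb were those when the passenger was low. An exception was 29 h, the library with the smallest total, when the passenger was at 2187 and the guide still at 128927.

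In ebax-1 mutants the same order of events came later. The passenger was at 64.6, 62.6, 29.4 and 19.4 normalised counts from 18 to 21 h, the last resting on 20 reads, so that it fell to 0.300 times its 18 h level (0.171 to 0.504) before the pulse. It was at 132 at 22 h, 741 at 23 h, 1827 at 24 h and 2667 at 25 h, which is 138 times the count of 21 h. It was then at 1602 and 1250 at 26 and 27 h, the latter 2.13-fold below the crest, at 309 and 136 in the 28 and 29 h libraries that stood apart, and at 274 and 980 at 30 and 31 h. With all libraries, the count of 29 h was 19.6-fold below the crest and that of 31 h was above it again. Without the libraries of 28, 29 and 31 h the last value was that of 30 h, 9.73-fold below the crest, and no second climb was seen.

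The mutant guide was nearly level at first, with 3716, 5276, 4864, 4890 and 6638 normalised counts from 18 to 22 h and 12559 at 23 h. It then made its largest single step, to 82146 at 24 h, a log2 step of 2.71 or 6.54-fold within 1 h. The largest step in wild type was 2.16, or 4.47-fold, from 20 to 21 h. The mutant 24 h library had miR-62 at 1235 normalised counts, the lowest outside the libraries that stood apart. Against 23 and 25 h it was also high in miR-84-5p (45882, 71439 and 55424) and miR-241-5p (626, 981 and 760). It was not so in miR-48-5p (146456, 169664 and 177077) and was low in lin-4-5p (3627, 2674 and 3859). The part of this library in the mutant step was not tested. A plateau of 85919, 91765 and 95626 covered 25 to 27 h.

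The late mutant guide values were uneven, with 199868 at 28 h, 198383 at 29 h, 103242 at 30 h and 151303 at 31 h. The step up at 28 h and the step down at 30 h fall on the edges of the libraries that stood apart, and the 30 h library was near the earlier plateau. The part of library quality in these values was not tested. Without the libraries of 28, 29 and 31 h, the highest mutant guide count was 103242.

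**Figure D1:**
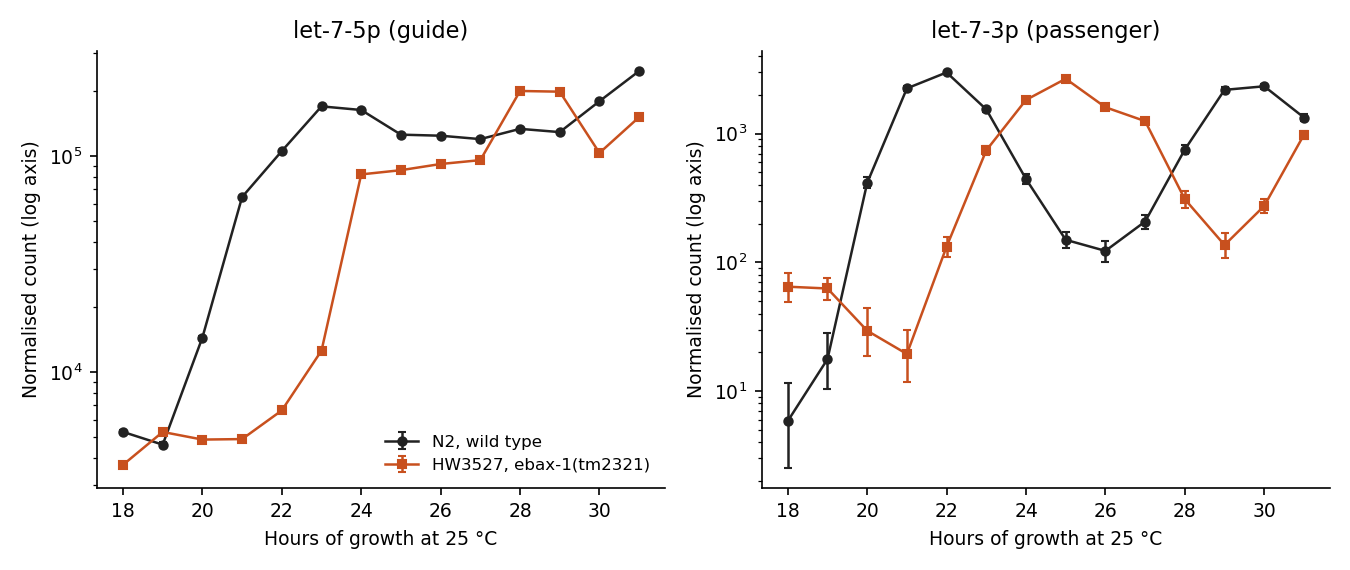
Normalised counts (log axis) of let-7-5p on the left and let-7-3p on the right against hours of growth, 1 library per point, in N2 (black circles) and ebax-1 mutants (orange squares); bars are exact Poisson intervals at 95%. The passenger crests at 22 and 30 h in wild type and at 25 h in the mutant, while the guide climbs during the first crest and then rises little or falls for some hours.

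From hour to hour, the passenger moved more than the guide. Its log2 step was the larger in size in 11 of 13 wild-type intervals and in 11 of 13 mutant intervals. The median size of a step was 0.95 for the passenger and 0.38 for the guide in wild type, and 0.97 and 0.44 in the mutant. The guide went up in 7 of 13 wild-type and in 10 of 13 mutant intervals, whereas the passenger went up in 8 and 6. Every mutant step after 27 h involves a library that stood apart, and the mutant counts and medians include these steps.

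The balance of the arms, as let-7-5p reads per let-7-3p read, swung accordingly. In wild type it was 904 at 18 h, with a wide counting interval of 458 to 1784, and lowest at 28.7 at 21 h. It was highest at 1012 (842 to 1215) at 26 h and lower again at 59.0 at 29 h. The mutant had its lowest value of 16.9 (15.7 to 18.3) at 23 h and its highest of 1457 (1172 to 1810) at 29 h, 1 of the libraries that stood apart. The highest remaining mutant value outside those libraries was 377 at 30 h. At the lowest ratio, in the mutant of 23 h, the passenger made up 5.57% of the reads of both arms.

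**Figure D2:**
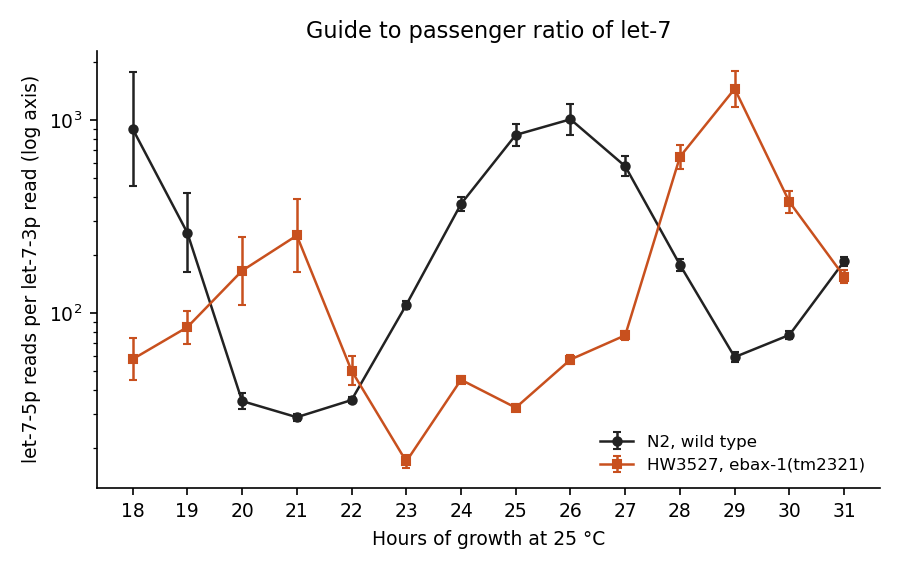
Reads of let-7-5p per read of let-7-3p (log axis) against hours of growth in N2 (black) and ebax-1 mutants (orange), 1 library per point, with Wilson-based 95% counting intervals. The ratio passes through 28.7 at 21 h and 1012 at 26 h in wild type, and through 16.9 at 23 h and 1457 at 29 h in the mutant.

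To separate pulses from accumulation, each strain was fitted with a linear trend plus a 7 h rhythm by limma, on log2 of normalised counts plus a pseudocount of 8, and p-values were Benjamini-Hochberg adjusted over all arms. let-7-3p had a rhythm in wild type, with an amplitude of 2.71 ± 0.41 (SE, log2, n = 14 libraries) and an adjusted p of 0.00153 by limma. This was the largest amplitude of 392 arms tested, of which 7.91% were called for rhythm at an adjusted p under 0.01. The fitted crest fell at 22.1 h and again 7 h later. The rhythm was lost with a 6 h period (amplitude 1.67, limma adjusted p 0.405) and missed the threshold without the 22 h library (2.62, adjusted p 0.0118).

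let-7-5p showed the reverse balance in wild type. Its linear trend was 0.31 ± 0.07 log2 per hour (limma adjusted p 0.0061), the 13th steepest rise, in a strain where 8.42% of the arms tested were called as rising. The guide's amplitude of 0.80 ± 0.42 did not pass (limma adjusted p 0.519), nor did the trend of the passenger at 0.14 ± 0.07 per hour (0.175). The rise of the guide missed the threshold, with limma adjusted p of 0.0103 to 0.0289, when the wild-type library of 18, 19, 20, 26, 27, 28 or 31 h was left out, and its slope then ran from 0.25 to 0.33.

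In the mutant, let-7-5p again had a rising trend, of 0.55 ± 0.06 log2 per hour (limma adjusted p 3.43e-05), the 4th steepest of 391 arms, of which 8.44% were called as rising. Without the 28, 29 and 31 h libraries the slope was 0.55 (limma adjusted p 5.83e-05). let-7-3p had the largest amplitude of the mutant as well, 1.61 ± 0.56, but did not pass (limma adjusted p 0.329), in a strain with 2.81% of arms called. Without the 28, 29 and 31 h libraries the amplitude was 1.71 (limma adjusted p 0.335) and the passenger's trend 0.45 per hour (0.0228). With a period of 6 h it was 0.72 (0.894). With a period of 8 h the amplitude was 2.39 and passed (limma adjusted p 0.0037), as did the passenger's trend, at 0.33 log2 per hour (0.00134, against 0.0353 with 7 h). The window of 14 h holds at most 2 cycles, which limits how well a period can be set.

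**Figure D3:**
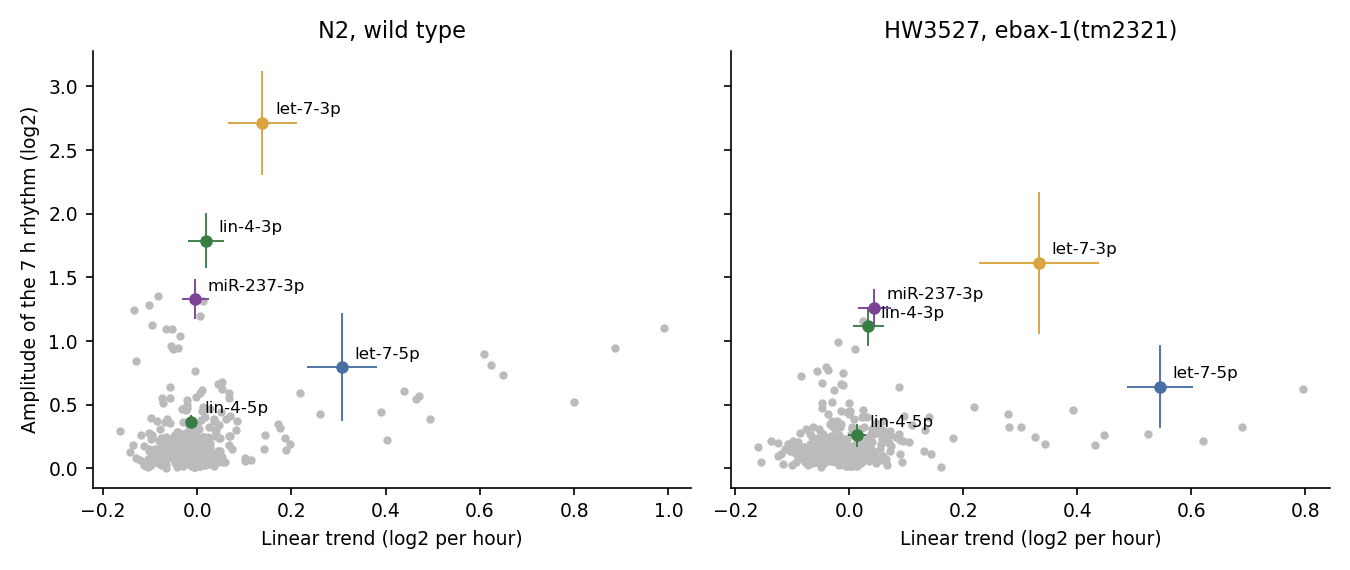
Amplitude of the 7 h rhythm (log2) against linear trend (log2 per hour) for every arm tested (grey) in N2 on the left and ebax-1 mutants on the right; let-7 and lin-4 family arms named in the panels carry bars of ± 1 SE. let-7-3p has the top amplitude in both panels, 2.71 and 1.61, and let-7-5p lies to the right with trends of 0.31 and 0.55.

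The log2 ratio of guide to passenger was fitted in the same way over the 95 hairpins with both arms at a mean of at least 10. In wild type the let-7 ratio had the largest rhythm of all, with an amplitude of 2.02 ± 0.31 and a limma adjusted p of 0.000174, where 22.1% of hairpins were called. Its crest, at 25.4 h, fell between the passenger pulses, and with a 6 h period the call was lost (amplitude 1.03, limma adjusted p 0.425). The trend of the ratio, 0.17 ± 0.06 per hour, missed the threshold (limma adjusted p 0.0412), with 12.6% of hairpins called either way, and passed without the 31 h library (0.24, 0.0036). In the mutant neither the rhythm (1.21 ± 0.44, limma adjusted p 0.168, 15.8% of hairpins called) nor the trend (0.21 ± 0.08, 0.0916, 2.11% called) passed, while the rhythm passed with an 8 h period (1.82, 0.00468) and was 0.53 with a 6 h period (0.789). Without the 28, 29 and 31 h libraries the mutant rhythm of the ratio was 0.79 (limma adjusted p 0.378) and its trend 0.10 per hour (0.394).

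Strains were then compared directly, with the hours of the mutant reduced by 3 h, the delay that the study derived from mRNA. All 14 libraries of each strain entered this fit. The mutant of 18 to 20 h and wild type of 29 to 31 h therefore had no matched hour in the other strain. The slopes below thus cover partly unlike hours, which the shift does not correct. The rhythm of let-7-3p did not pass a test of its difference between strains, with an amplitude lower by 1.10 in the mutant (amplitudes of 2.71 and 1.61, limma adjusted p 0.947), and 0.493% of 406 arms were called. Without the mutant libraries of 28, 29 and 31 h the difference was -1.001 (limma adjusted p 0.918). Without the shift of hours this test did pass (limma adjusted p 0.000822). The rhythm of the guide differed by -0.16 (adjusted p 0.987), and changed sign to 0.27 without the mutant libraries of 28, 29 and 31 h (0.975). The guide's slope was 0.24 ± 0.10 log2 per hour steeper in the mutant and the passenger's 0.19 ± 0.14, neither of which passed by limma (adjusted p 0.2 and 0.531), with 2.71% of arms called. Without the mutant libraries of 28, 29 and 31 h these slopes were steeper by 0.24 and 0.32, again not called (limma adjusted p 0.169 and 0.222).

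The delay of the pulse can be read from let-7-3p itself. The crest of the fitted 7 h rhythm came 2.80 ± 0.44 h (delta-method SE) later in the mutant than in wild type, 2.51 to 3.13 h later with any single library left out, and 2.68 h later without the mutant libraries of 28, 29 and 31 h. The mutant rhythm used here was itself not called. The highest libraries of the first pulse were 3 h apart. Measured at 50% of the highest count by straight lines between hours, a reading chosen after the values were seen, the rising flank was 2.96 h later (20.6 and 23.5 h) and the falling flank 3.72 h later (23.0 and 26.8 h), neither of which used a library that stood apart.

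The first pulse of let-7-3p was therefore wider in the mutant, at 3.22 h against 2.45 h. At 25% of the highest count the widths were 4.74 and 3.54 h, with delays of 2.70 h on the rise and 3.90 h on the fall, where the mutant fall is read between 27 h and the 28 h library that stood apart. Without the 28, 29 and 31 h libraries that fall is read across the gap from 27 to 30 h, which gives a delay of 5.07 h and a mutant width of 5.92 h. With 1 library per hour and no replicate culture, these widths have no error and no test. In the fitted rhythms, the guide crested 0.49 ± 0.57 h after the passenger in wild type and 0.79 ± 0.68 h after it in the mutant, or 0.38 h without the 28, 29 and 31 h libraries, all within 2 SE of 0. The 7 h rhythm of the guide was called in neither strain, nor was that of the mutant passenger. These SEs treat the arms as independent, although both come from the same libraries, so no order of the crests is concluded.

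At matched hours, the question was whether either let-7 arm accumulates differently in ebax-1 mutants. Wild type of 18 to 28 h was set against the mutant of 21 to 31 h, which gave 11 pairs of hours, with a spline of 6 components, strain and their interaction. The F test takes all strain terms together and has no direction. Arms given here and below as called higher or lower passed that test, with the direction read from their mean difference. let-7-3p was called for a strain effect by the limma F test (adjusted p 0.00536), among 16.5% of 406 arms called, so 1 of the 2 let-7 arms passed. Its mean log2 difference, mutant minus wild type, was 0.66 ± 0.12 (SE, interval 0.40 to 0.92), with higher values in 9 of 11 matched hours. Mean counts over these hours were 904 ± 855 in the mutant and 808 ± 1009 in wild type (SD, n = 11 hours). These SDs reflect the pulse over the hours and are no error of the strain difference, and the means follow the hours of highest count.

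The difference in let-7-3p was largest on the flanks of the first pulse. It was highest at the wild-type hour 19, at 2.45 on the log2 scale (17.7 normalised counts, or 17 reads, against 132 in the mutant), and was 1.48 at hour 24 (444 and 1250). It was 0.83 and 1.01 at hours 20 and 25, and 0.98 at hour 18, before the pulse, from 8 and 20 reads. At hours 26, 27 and 28 it was 0.14, 0.39 and 0.38. The mutant libraries of hours 25, 26 and 28 were those that stood apart. At hours 21, 22 and 23, around the crest, it was -0.30, -0.16 and 0.06.

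The call for let-7-3p depended on the fit. It turned negative when hours were shifted by 0 or 1 h (-0.56 and -0.28, both called), was 0.12 at 2 h and 1.21 at 4 h (both called), and was lost with a spline of 3 or 4 components (limma adjusted p 0.631 and 0.389) and when matched hours entered as a block (0.0339). Leaving out 1 library at a time lost the call in 15 of 22 fits (limma adjusted p up to 0.0766), which were those without wild type of 18, 19 or any of 21 to 28 h, or without the mutant of 21, 22, 24, 25 or 28 h. Without the mutant libraries of 28, 29 and 31 h it was 0.72 (limma adjusted p 0.00343).

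let-7-5p was not called between strains at matched hours (limma adjusted p 0.554). Its mean log2 difference was -0.01 ± 0.15, with an interval of -0.34 to 0.33, and the mutant was higher in 5 of 11 hours. Single hours ran from -0.89 at hour 23 to 0.68 at hour 26, where the mutant library was that of 29 h. Mean counts were 93849 ± 69204 in the mutant and 93610 ± 61487 in wild type (SD, n = 11 hours, which reflects the climb over the hours). Without the 28, 29 and 31 h libraries the difference was -0.20 (adjusted p 0.691). The sign moved with the delay, at -1.14 and -0.76 for shifts of 0 and 1 h and 0.47 for 4 h, all called. At 3 h it was also positive, and not called, with other scalings and count tests (0.16 to 0.21) and in 9 of 22 fits with 1 library left out.

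The guide to passenger ratio of let-7 was lower in the mutant in 9 of 11 matched hours, with a mean log2 difference of -0.67 ± 0.21 (interval -1.10 to -0.23). The limma test of this mean missed the threshold (adjusted p 0.0117), where 44.2% of the 95 hairpins passed. Without the mutant libraries of 28, 29 and 31 h the difference was -0.91 and passed (limma adjusted p 0.00178). It also passed in 8 of 22 fits with 1 library left out, those without wild type of 21 h or the mutant of 21, 22, 23, 24, 29, 30 or 31 h (limma adjusted p from 0.00159).

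**Figure D4:**
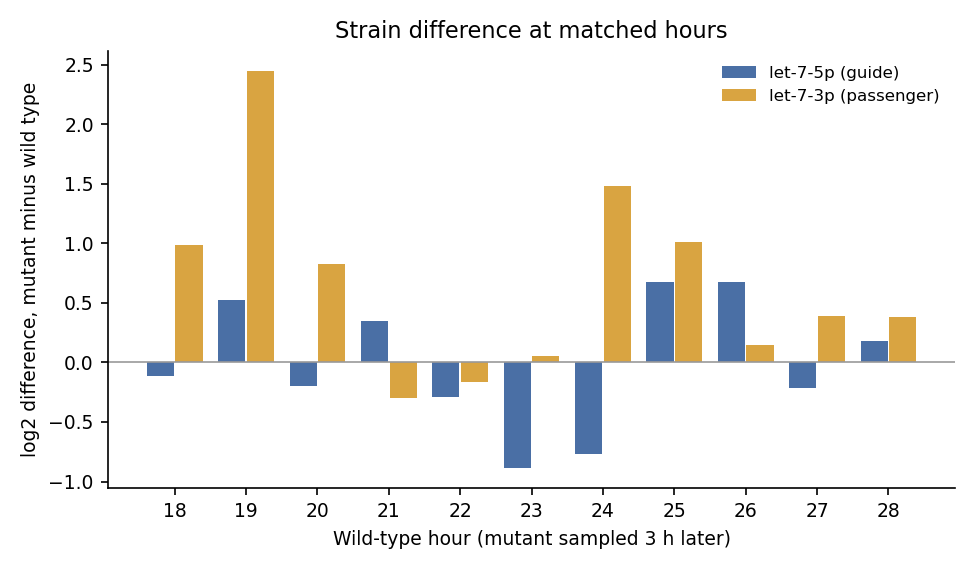
Log2 difference, mutant minus wild type, of let-7-5p (blue) and let-7-3p (yellow) at each of 11 matched hours, labelled by the wild-type hour; each bar compares 1 mutant with 1 wild-type library, so there is no error bar. The passenger is higher in the mutant at 9 hours, most at hour 19 (2.45) and hour 24 (1.48), and the guide lies on either side of 0.

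Guide levels over time were also set against the passenger with the linear model of the study, in which the guide gains in proportion to the passenger and decays at a constant rate. In wild type the fit gave a decay rate of 0.139 per hour, a half-life of 4.99 h, with 3.91 to 6.32 h when any 1 library was left out. Its root mean square error was 14655 normalised counts, 12.9% of the mean guide count, against 34140 for the same model with a constant input. The curve followed both climbs and the lower values between them, and at 31 h lay below the measured guide.

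The model described the mutant guide less closely. The decay rate was 0.0371 per hour, a half-life of 18.7 h, with an error of 28546 (38.2% of the mean) against 35794 for a constant input. Without the libraries of 28, 29 and 31 h the rate was 0.207 per hour and the half-life 3.35 h, and leaving out single libraries moved the rate between 0 and 0.0701. The mutant decay rate was therefore not fixed by these libraries, and no comparison of rates between strains was made.

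**Figure D5:**
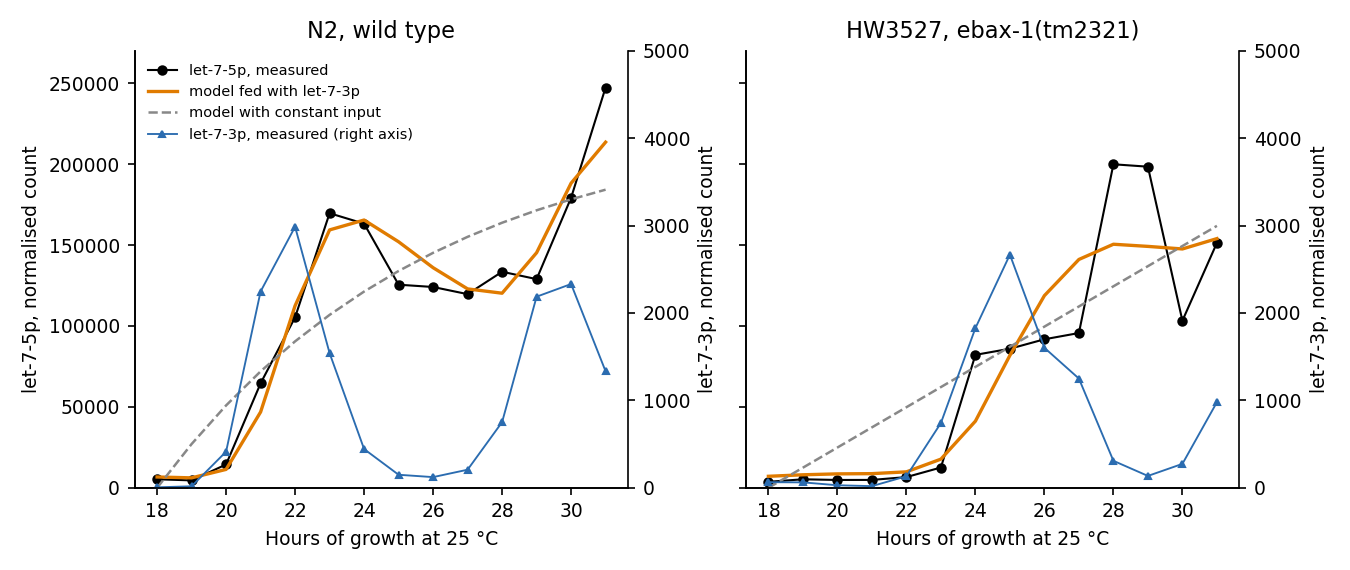
let-7-5p in normalised counts (black, left axis) and let-7-3p in normalised counts (blue, right axis) against hours of growth in N2 and ebax-1 mutants, with the model fed by let-7-3p (orange) and with a constant input (dashed grey). In wild type the orange curve rises, falls back in part and rises again with an error of 14655 counts, against 34140 for the dashed curve.

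let-7 was set beside its relatives, miRNAs of the same seed family that act in larval timing together with it (miR-48, miR-84 and miR-241) or are less studied (miR-793, miR-794 and miR-795). Of their 11 arms, all tested, 1 was called for a 7 h rhythm in wild type, miR-84-3p, a passenger, with an amplitude of 0.52 ± 0.08 (limma adjusted p 0.00207), near the 7.91% of all arms. The median amplitude of the 11 arms was 0.08, against 0.14 over all arms and 2.71 for let-7-3p. In the mutant, limma called 0 of 11 for rhythm, against 2.81% of all arms, with 1 (miR-84-3p) at an unadjusted p under 0.05. The edgeR test called 0 of 11, and 8 among all arms it tested. The guide miR-48-5p rose in wild type by 0.05 log2 per hour, 1 of 11 arms called as rising, while 4 fell, against 8.42% and 16.8% of all arms. In the mutant 2 rose, miR-48-5p (0.09) and miR-48-3p (0.08), and 2 fell, against 8.44% and 9.97%. Without the 28, 29 and 31 h libraries 1 rose, miR-48-5p, and 3 fell, against 30 and 33 of all 389 arms tested.

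Between strains at matched hours, 1 of the 11 relatives was called higher in the mutant, miR-48-3p (0.50 ± 0.08, limma adjusted p 0.0058), and 6 were called lower, where 5.67% of all arms were called higher and 10.8% lower. The median difference was -0.60 over the list and -0.07 over all arms. Without the mutant libraries of 28, 29 and 31 h, 0 relatives were called higher and 3 lower (miR-793 and both arms of miR-795), by a fit in which 19 of 404 arms passed. The guide of let-7, at -0.01 ± 0.15, lay above the guide miR-84-5p (-0.75 ± 0.07). The guide miR-48-5p was at -0.19 ± 0.04. Without the mutant libraries of 28, 29 and 31 h let-7-5p was itself at -0.20. Whether let-7-5p and miR-48-5p differ in this was not tested.

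The lin-4 family, lin-4 and miR-237, holds the timing miRNAs that act through targets such as lin-14. In wild type 3 of its 4 arms were called for rhythm, against 7.91% of all arms, namely lin-4-3p (1.79 ± 0.22, the 2nd largest amplitude after let-7-3p), miR-237-3p (1.33 ± 0.15) and lin-4-5p (0.37 ± 0.05). In the mutant lin-4-3p (1.11 ± 0.15) and miR-237-3p (1.26 ± 0.15) were called, 2 of 4 against 2.81% of all arms, each by limma (adjusted p 0.00237 and 0.00231, and also without the 28, 29 and 31 h libraries), while let-7-3p with its larger amplitude and larger error was not. The guide lin-4-5p had a trend of -0.01 log2 per hour in wild type, where let-7-5p had 0.31. Of this family, the rise of miR-237-5p was called in both strains (0.08 and 0.13 log2 per hour).

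Arms were ranked by how closely they followed each let-7 arm, as Pearson r over the 28 libraries of log2 values centred within strain, among 201 other arms. These values share libraries, scaling and the course of development, and are a description. For let-7-5p the closest were miR-240-3p (0.93), miR-48-5p (0.91), miR-786-3p (0.89), miR-85-3p (0.88) and miR-240-5p (0.87), and its own partner let-7-3p was 17th (0.70). For let-7-3p they were miR-75-5p (0.80), miR-237-3p (0.76), miR-58a-5p (0.74), miR-241-3p (0.72) and let-7-5p (0.70).

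Markers of other tissues were read beside let-7. Muscle miR-1-3p, intestinal miR-60-3p, neuronal miR-124-3p and lsy-6-3p, and glial miR-228-5p were called for rhythm in neither strain (limma adjusted p 0.685 to 0.944). Of all arms, 7.91% were called for rhythm in wild type and 2.81% in the mutant. Their trends ran from -0.10 to 0.02 log2 per hour, against 0.31 and 0.55 for let-7-5p, and those called were falls, of lsy-6-3p in both strains, miR-228-5p in wild type and miR-1-3p in the mutant. Between strains at matched hours, 3 of these 5 markers were called lower in the mutant by limma, beside the higher let-7-3p: miR-60-3p (-1.11 ± 0.15, adjusted p 0.005), lsy-6-3p (-0.87 ± 0.10, 0.00294) and miR-1-3p (-0.53 ± 0.06, 0.00372). Among all arms, 10.8% were called lower and 5.67% higher. The values of miR-228-5p (0.26 ± 0.07) and miR-124-3p (0.05 ± 0.16) were not called. Without the mutant libraries of 28, 29 and 31 h only lsy-6-3p of these 5 was called (-0.73, limma adjusted p 0.00404), with -0.76 for miR-60-3p and -0.42 for miR-1-3p, while let-7-3p was at 0.72 and called. That fit called 4.70% of 404 arms. The part of tissue makeup in the let-7 difference was not tested.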

How the data were processed

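The authors trimmed adapters, aligned reads to ce10 with Bowtie through QuasR (up to 100 hits per read), and counted same-strand reads starting within 3 bp of the 5′ end of a mature miRBase arm. The sources used here give no versions of these tools. The deposited count table holds whole-number counts per arm, not pooled. The deposited log2 table holds log2 of counts scaled by the authors to the mean library total, plus a pseudocount of 8, and was recomputed from the counts within 0.0005. A library with 0 reads of an arm allows 3 counts. Scaling to the total makes each value a share.

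limma 3.58.1 in R 4.3.3 tested the deposited log2 values, with calls at a Benjamini-Hochberg adjusted p under 0.01 over all arms with a read. The matched-hour fit had 22 libraries. As hours are single libraries, p-values measure spread around a curve, which may be technical. Ratios, intervals and the model used Python 3.11.15 with SciPy 1.17.1. Alternatives used edgeR 4.0.16 and DESeq2 1.42.0. Calculations were tested on simulated data. Named were both let-7 arms, let-7 and lin-4 relatives and the 5 arms most like each let-7 arm, and the members and lists were chosen with earlier results of these data known. Mature sequences were not used here.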

Additional observations from a re-analysis of the deposited data

How the results depend on the processing

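Other delays (0, 1, 2 and 4 h), splines (3, 4 and 5 components), TMM and DESeq2 size factors, pseudocounts of 1 and 32, a minimum mean of 10, moderation with trend, edgeR, DESeq2, periods of 6 and 8 h, the block, and libraries left out gave 715 repeats, of which 631 kept direction and side of the threshold or moved little. This total pools results that were called with results that were not. For the called strain effect of let-7-3p, 7 of 22 fits with 1 library left out and 11 of 17 other repeats kept both. Causes were not tested. The strain difference of let-7-5p was -1.14 and -0.76 with delays of 0 and 1 h, 0.47 with 4 h, 0.16 with TMM factors, 0.17 with DESeq2 size factors, 0.20 with edgeR and 0.21 with DESeq2, and -0.080 to 0.091 with 1 library left out. That of let-7-3p was -0.56 and -0.28 with delays of 0 and 1 h, 0.66 with splines of 3 or 4 components, 0.52 with a pseudocount of 32 (limma adjusted p 0.0185), and 0.47 to 0.77 with 1 library left out. With the matched hour as a replicate block it was 0.66 (limma adjusted p 0.0339), and the block changed no other let-7 call. The ratio difference was -0.74 with a delay of 4 h, -0.91 without the mutant libraries of 28, 29 and 31 h, and -0.83 to -0.49 with 1 library left out.

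With a period of 6 h the wild-type amplitude was 1.67 for let-7-3p and 1.03 for the ratio, and the mutant guide crested -0.29 h after the passenger. With 8 h the mutant amplitude was 2.39 for let-7-3p and 1.82 for the ratio, the mutant trend of let-7-3p 0.33, the wild-type ratio trend 0.17 (limma adjusted p 3.27e-05), and the wild-type guide crested 1.28 h after the passenger. The ratio trend of wild type was 0.22 with a pseudocount of 32 and 0.13 to 0.24 with 1 library left out. The wild-type trend of let-7-5p ran from 0.25 to 0.33 and the amplitude of let-7-3p from 2.51 to 2.88 with 1 library left out. The difference in amplitude between strains was -1.10 for let-7-3p with no delay, and for let-7-5p 0.27 without the 28, 29 and 31 h libraries and -0.45 to 0.079 with 1 library left out. The mutant decay rate was 0.101 per hour with errors on the log2 scale and 0.207 without the 28, 29 and 31 h libraries. The number of arms called between strains was 67, and 133, 116 and 106 with delays of 0 and 1 h and with the block, 42 with a pseudocount of 1, 19 without those 3 libraries, and 35 to 79 with 1 left out. Depth limits the passenger at 18 h in wild type, which rests on 8 reads.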
